A study of Homo sapiens with 10 samples.

Results

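The RNA-binding proteins that decorate nascent transcripts and steer their splicing were followed through 10 arrays of MDA-MB-435 cells. The set comprised the SR proteins, the TRA2 proteins, the core paraspeckle proteins SFPQ, NONO and PSPC1, and the hnRNP proteins with PTBP1 and SYNCRIP. It listed 36 genes, and a probe annotated to one of them entered the set where any of the 10 arrays gave it a detection score of at least 0.99. Of the 36 genes, 34 had a probe, and these carried 40 probes, of which 38 were kept out of 14018 kept probes in the whole series. SRSF7 and HNRNPUL1 had no probe. The genes were proposed with earlier results of these data known, so counts over the set are descriptions and were not tested as a set.

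MDA-MB-435 is a human melanoma line, and each of the 5 groups was measured in 2 biological duplicates on Illumina bead arrays. Besides untreated cells there were 3 groups given hepatocyte growth factor (HGF, the ligand of the MET receptor), harvested after 1 h, 6 h or 24 h. A further group had been transduced with integrin Beta4 (ITGB4), and its labels name no HGF. All groups were the same line under standard growth conditions, the HGF dose is not stated in the labels, and whether the ITGB4 cells were 1 clone or a pool is not given in the sources used here. Values are quantile-normalised signals on a linear scale or differences between group means on the log2 scale. A difference was called at an adjusted p under 0.05 in the limma fit of all kept probes, and is given with its standard error (SE, 2 arrays a group).

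SR proteins carry an RNA-recognition motif and a domain rich in arginine and serine, bind exonic enhancers, and recruit the spliceosome to nearby splice sites. The hnRNP proteins coat pre-mRNA and often act against SR proteins at the same exons. SFPQ, NONO and PSPC1 form dimers with one another and build paraspeckles, nuclear bodies assembled on the long non-coding RNA NEAT1. Many of these genes limit their own protein by alternative splicing of their own transcripts, through exons that mark the RNA for decay, so a probe can read productive and unproductive transcripts together.

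RefSeq promoter sequences (GRCh38.p14) were at hand for 30 of the 34 genes with a kept probe, at 42 start sites. SFPQ, SRSF2, HNRNPA1 and TRA2A had none. The counts of matches below thus leave out SFPQ and SRSF2, which had the largest called falls from 6 h to 24 h. The 250 bases before the start site are shown for SRSF3, HNRNPU and SRSF1, which had the largest called falls from 6 h to 24 h among the genes with such a sequence, and for SRSF4, the member called in the opposite direction. They lie at chr6:36594112-36594361 on the plus strand for SRSF3, at chr1:244864544-244864793 on the minus strand for HNRNPU, at chr17:58007247-58007496 on the minus strand for SRSF1, and at chr1:29181901-29182150 on the minus strand for SRSF4. Capitals mark matches, on either strand, to 7 sets of letters, namely the CCAAT box (CCAAT), the GC box (GGGCGG), the TATA box (TATAAA), the ETS core (CCGGAAG), the E-box (CACGTG), the cAMP response element (TGACGTCA) and the NRF1 motif (GCGCATGC).
SRSF3: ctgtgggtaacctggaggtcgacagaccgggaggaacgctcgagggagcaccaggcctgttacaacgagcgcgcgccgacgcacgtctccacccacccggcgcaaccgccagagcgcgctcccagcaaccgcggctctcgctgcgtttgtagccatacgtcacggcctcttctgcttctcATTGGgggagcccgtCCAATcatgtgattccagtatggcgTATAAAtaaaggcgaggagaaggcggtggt
HNRNPU: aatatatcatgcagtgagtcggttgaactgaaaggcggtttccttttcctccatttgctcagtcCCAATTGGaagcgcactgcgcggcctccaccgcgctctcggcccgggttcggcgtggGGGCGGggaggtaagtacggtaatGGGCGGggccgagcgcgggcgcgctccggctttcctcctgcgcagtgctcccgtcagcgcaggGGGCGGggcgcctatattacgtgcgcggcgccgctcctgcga
SRSF1: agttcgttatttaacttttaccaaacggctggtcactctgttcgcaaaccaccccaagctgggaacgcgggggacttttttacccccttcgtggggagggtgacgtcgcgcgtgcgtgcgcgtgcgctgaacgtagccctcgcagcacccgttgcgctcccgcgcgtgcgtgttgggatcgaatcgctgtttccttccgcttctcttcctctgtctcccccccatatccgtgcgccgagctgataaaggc
SRSF4: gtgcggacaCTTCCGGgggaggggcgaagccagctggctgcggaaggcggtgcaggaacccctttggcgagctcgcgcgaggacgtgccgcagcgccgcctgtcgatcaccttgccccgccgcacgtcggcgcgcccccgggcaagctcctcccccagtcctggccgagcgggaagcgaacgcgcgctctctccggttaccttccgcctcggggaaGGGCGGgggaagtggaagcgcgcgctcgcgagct

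The SRSF3 promoter held a CCAAT box starting at -70 and another at -55, and a TATA box at -30, counted from the start site. In HNRNPU a CCAAT box on each strand, at -186 and -183, overlapped in the letters CCAATTGG, and GC boxes stood at -129, -105 and -42. SRSF4 held an ETS core at -241 and a GC box at -34, and the SRSF1 window held none of the 7. Over all member start sites a CCAAT box was found in 20 of 42 (47.6%), against 32.0% of 35116 promoters of the same length, and a GC box in 23 of 42 (54.8%) against 42.6%. The E-box was found in 7 of 42 (16.7%) against 6.34%, the TATA box in 5 of 42 (11.9%) against 10.7%, and the ETS core in 4 of 42 (9.52%) against 8.52%. The NRF1 motif was found in 3 of 42 (7.14%) against 2.63%, and the cAMP response element in 0 of 42 against 1.65%. Several start sites of a gene overlap in part, the median GC content was 65.4% in the member windows and 58.0% in all, and a match is a description of letters only.

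Every one of the 38 kept probes was detected on all 10 arrays, against 63.3% of all kept probes. Their signals were high, with a median of 682 against 172 over all kept probes, and 22 of 38 stood above the 75th percentile. The detection limit corresponded to a signal of 89.6, and between 10 and 51 beads stood behind each value. Members just inside and just outside the detection filter lay far apart. The isoform probe of HNRNPA1 (GI_14043069-I) had the lowest scores among those kept, at least 0.99998, whereas the isoform probes of HNRNPM and HNRNPU that were not kept reached at most 0.740 and 0.539.

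The labels were checked on 3 points. ITGB4 gave a signal of 6788 and 5023 on the arrays of transduced cells and between 59.6 and 63.9 on the other 8. Of 8 melanocyte genes 7 had a probe and 6 were detected on all 10 arrays, while CDH1, EPCAM, KRT19, ESR1, COL1A1, COL1A2, COL3A1, CD3E and CD14, markers of epithelial cells, fibroblasts and immune cells, were detected on 0 arrays. KRT18, DCN and LUM were detected on all 10 arrays, KRT8 on 9, and 1 of the PTPRC probes on 5. The arrays fell into 2 kinds by the scores of undetected probes. On replicate 1 of the untreated and the 3 HGF groups the 25th percentile of these scores was between 0.00011 and 0.0035, and on the other 6 arrays between 0.055 and 0.217. Both kinds hold 1 array of each of these 4 groups, and both ITGB4 arrays are of the second kind, so differences within each kind are given below.

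Signals of most member probes were highest at 6 h of HGF, and lower at 1 h and 24 h than at 6 h. Against untreated cells 0 members were called at 1 h and 0 at 24 h, and in both comparisons 0 of all 14018 kept probes were called. Among the 5 group means, that of 6 h was the highest for 26 of 38 member probes (28.5% of all kept probes), while the lowest mean was at 24 h for 18 (16.6% of all) and at 1 h for 14 (19.3% of all). Both 6 h arrays lay above all 8 other arrays for 21 of 38 member probes, against 8.62% of all kept probes. The median difference of the members from untreated cells was -0.27 at 1 h, 0.29 at 6 h, -0.29 at 24 h and 0.00 in ITGB4 cells, on the log2 scale. Over all kept probes the same medians were 0.04, 0.01, 0.01 and 0.00. The median log2 signal level of the members on an array varied between duplicates with a pooled SD of 0.19. That SD is of levels and is not the error of these median differences. The 3 HGF comparisons share the untreated arrays, and the comparisons between times share the 6 h arrays.

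**Figure D1:**
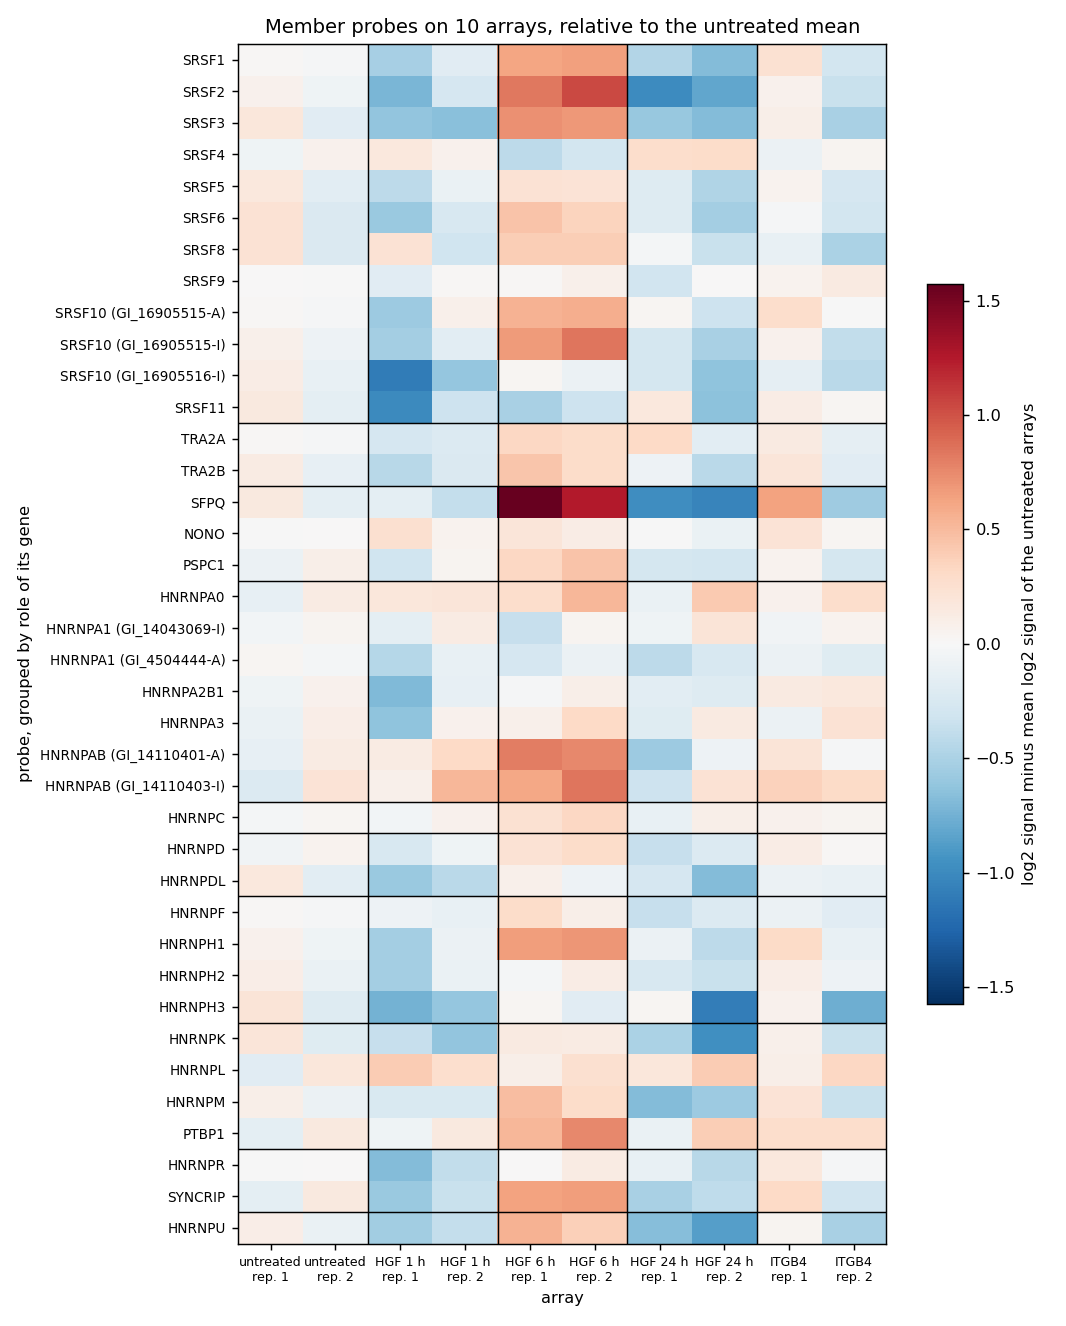
Each row is 1 of the 38 member probes, grouped by role, and each column 1 of the 10 arrays; colour gives the log2 signal minus the mean log2 signal of the untreated arrays. The 6 h columns are red for most rows and SFPQ is the darkest, the 24 h and 1 h columns are mostly blue, and SRSF4 and SRSF11 are blue at 6 h.

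SFPQ, which pairs with NONO or PSPC1 and is a cofactor of splicing and transcription, had the largest differences among the members at 6 h and 24 h. Its signal was 413 and 334 in untreated cells, 333 and 287 at 1 h, 1105 and 884 at 6 h, 188 and 180 at 24 h, and 577 and 252 in ITGB4 cells. Both 6 h arrays were above, and both 24 h arrays below, all others, and the ITGB4 duplicates lay on either side of the untreated ones. SFPQ was 2.66-fold higher at 6 h than in untreated cells (log2 difference 1.41, SE 0.29, adjusted p = 0.030). It rose 3.19-fold from 1 h to 6 h (adjusted p = 0.010) and then fell 5.37-fold to 24 h (adjusted p = 0.0011). At 24 h it stood 1.01 below untreated cells on the log2 scale (SE 0.29), with an adjusted p of 0.857 in a comparison where no probe of the array was called. The rise over untreated cells was 1.42 within the first kind of array and 1.41 within the second.

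SRSF2, a founding SR protein also known as SC35, was the other member called at 6 h against untreated cells. Its signal was 2077 and 1885 in untreated cells, 1204 and 1644 at 1 h, 3519 and 4049 at 6 h, 996 and 1122 at 24 h, and 2066 and 1557 in ITGB4 cells. The 6 h arrays were above and the 24 h arrays below all others. The difference at 6 h was 0.93 (SE 0.20, 1.91-fold, adjusted p = 0.032), with 0.76 and 1.10 within the 2 kinds of array. From 1 h to 6 h SRSF2 rose 2.68-fold (adjusted p = 0.0061), and from 6 h to 24 h it fell 3.57-fold (adjusted p = 0.00071).

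SFPQ and SRSF2 made 2 called members of 38 at 6 h against untreated cells, both higher. In that comparison 1.9% of all kept probes were called in either direction and 0.97% as higher. Among probes detected on all 10 arrays, as the members were, 2.62% were called. Both calls were lost when any 1 of the 2 untreated or the 2 HGF 6 h arrays was left out, and the calls over all kept probes then went from 267 to between 0 and 28. Without either HGF 1 h array 1 member (175 probes in all) was called, and without either HGF 24 h array 4 (490 in all). With the kind of array as a block, 10 members and 7.60% of all kept probes were called. For 26 of 38 members both 6 h arrays lay above both untreated arrays (20.7% of all kept probes), and for 3 both lay below (23.9%). The summed signal of the melanocyte genes was lower at 6 h (16484 and 17843) than in untreated cells (23132 and 26443). It was also below untreated cells at 1 h (20405 and 22568), at 24 h (19180 and 22758) and in ITGB4 cells (21009 and 21296.5), with 6 h the lowest. The summed fibroblast signal was also lower at 6 h than in untreated cells (818 and 915 against 1100.2 and 1178). It was lower too at 1 h (801 and 956), at 24 h (843 and 980) and in ITGB4 cells (960 and 1053). The epithelial sum was higher at 6 h (942 and 1003 against 837 and 841) and already at 1 h (905 and 1006). At 24 h (738 and 960) and in ITGB4 cells (815 and 893) it overlapped untreated cells. The immune sum overlapped at 6 h (309 and 325 against 299 and 332). These sums include probes at background. Of the genes with a probe, 3 of 5 fibroblast, 4 of 6 epithelial and 2 of 3 immune genes were detected on 0 arrays. The 3 sums thus rest on few genes and do not measure the amount of a cell type. The part of these markers in the differences of the members was not tested. In RNA from a whole culture, fewer cells with an RNA and less of that RNA in each cell cannot be told apart.

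The largest differences at 6 h that were not called belonged to HNRNPAB, SRSF10 and SRSF3. HNRNPAB, an hnRNP that binds AU-rich RNA and is a close relative of HNRNPD, was read by a probe for all its isoforms (GI_14110401-A) and by an isoform probe (GI_14110403-I). The first gave 1104 and 1316 in untreated cells, 1315 and 1498 at 1 h, 2103 and 2038 at 6 h, 812 and 1138 at 24 h, and 1382 and 1185 in ITGB4 cells. The second gave 301 and 405, 370.5 and 501, 533 and 628, 278 and 409, and 448.5 and 429 in the same order. On both probes the 6 h arrays were the brightest. Against untreated cells the differences at 6 h were 0.78 (SE 0.19, adjusted p = 0.055) and 0.73 (SE 0.22, adjusted p = 0.114). From 6 h to 24 h both probes fell, by 1.11 (adjusted p = 0.0044) and by 0.78 (adjusted p = 0.047) on the log2 scale.

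**Figure D2:**
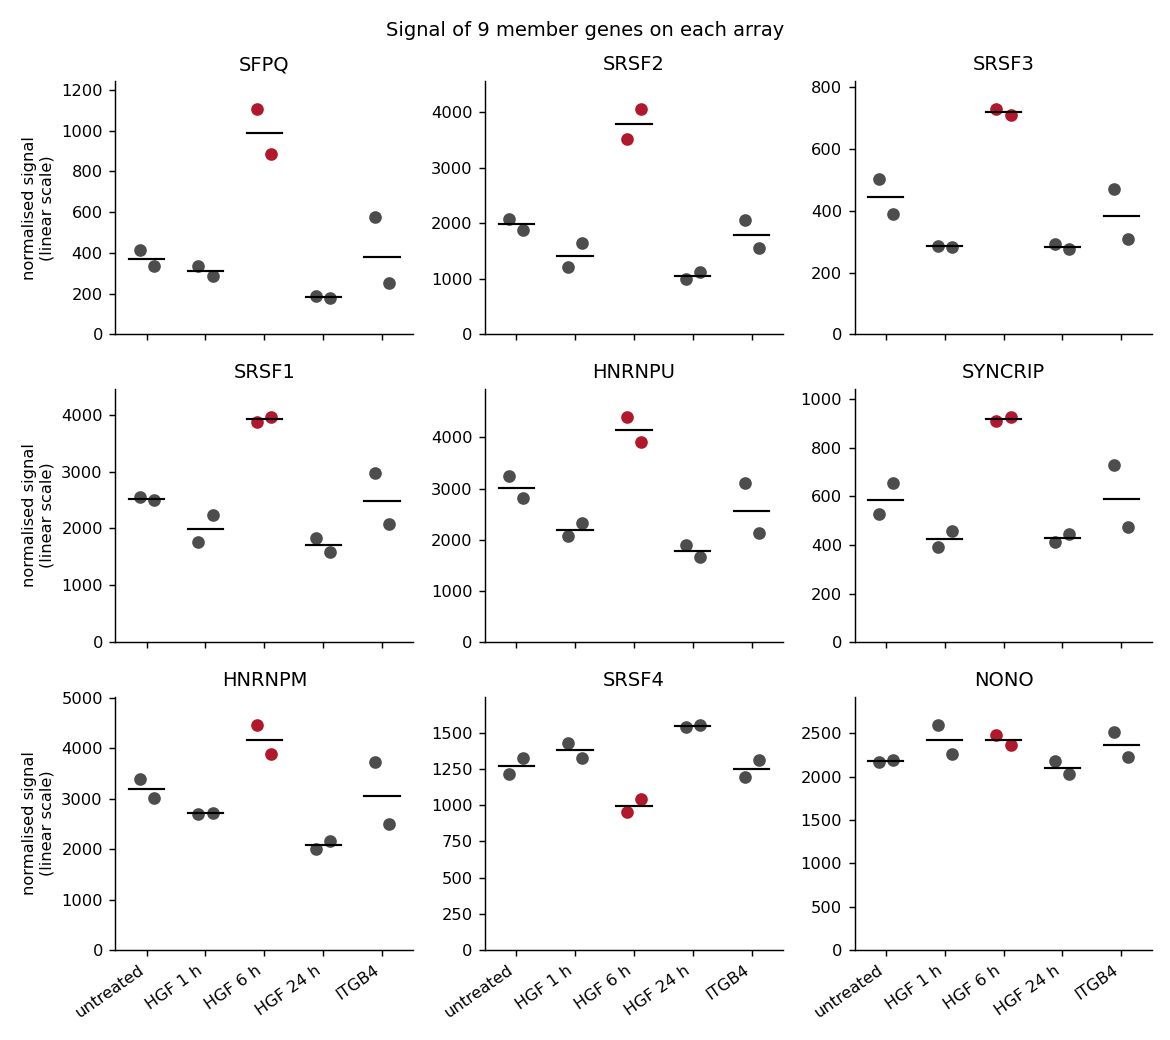
Normalised signal on a linear axis starting at 0 for 9 member genes, with 1 point per array (2 per group), a bar at the geometric mean of the group, and the 6 h arrays in red. SFPQ, SRSF2, SRSF3, SRSF1, HNRNPU, SYNCRIP and HNRNPM had both 6 h points above all others, SRSF4 had both 6 h points below all others, and NONO stayed between 2029 and 2600.

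Between 1 h and 6 h, 11 member probes of 9 genes were called, all of them higher at 6 h. Of all kept probes 4.67% were called in this comparison, 2.24% as higher and 2.43% as lower, and among those detected on all 10 arrays 6.48% were called. The 9 genes were SFPQ and SRSF2 with SRSF1, SRSF3, SRSF6, SRSF10, HNRNPH1, SYNCRIP and HNRNPU. By role these were 7 of 12 SR protein probes, and 1 probe each of the paraspeckle, hnRNP F/H, SYNCRIP with HNRNPR, and hnRNP U groups. Of the 7 hnRNP A/B probes 0 were called, which is near the share over all. Differences were above 0 for 6 of these 7, with a median of 0.43, and the roles were not compared by a test. Without replicate 1 of HGF 1 h 0 members were called, and 0 of all kept probes against 654 with all arrays. Without replicate 1 of HGF 6 h 1 member and 23 probes in all were called, and without its replicate 2 there were 3 members and 77 in all. With the kind of array as a block, 21 members and 12.1% of all kept probes were called. For 32 of 38 members both 6 h arrays were above both 1 h arrays (22.7% of all kept probes), and the median difference was 0.53 against -0.01 over all. Within the first kind of array the median was 0.66 and within the second 0.44, with 34 and 35 of 38 members above 0.

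Between 6 h and 24 h, 16 member probes were called, of which 15 probes of 14 genes were lower at 24 h and 1 was higher. Of all kept probes 8.31% were called, 4.07% as lower and 4.24% as higher, and among those detected on all 10 arrays 11.5% were called. Both 24 h arrays lay below both 6 h arrays for 29 of 38 members (20.3% of all kept probes). The median difference was -0.52 against 0.00 over all kept probes, and it was -0.48 and -0.61 within the 2 kinds of array. By role the falls were 5 of 12 SR protein probes, 2 of 3 paraspeckle probes, 2 of 7 hnRNP A/B probes, 1 of 2 hnRNP D probes, 1 of 4 hnRNP F/H probes, 2 of 4 probes of HNRNPK, HNRNPL, HNRNPM and PTBP1, and 1 probe each of SYNCRIP and HNRNPU. Without replicate 1 of HGF 6 h 8 members and 434 probes in all were called, without its replicate 2 there were 9 and 308, and without replicate 2 of HGF 24 h 10 and 814, against 1165 in all with every array.

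**Figure D3:**
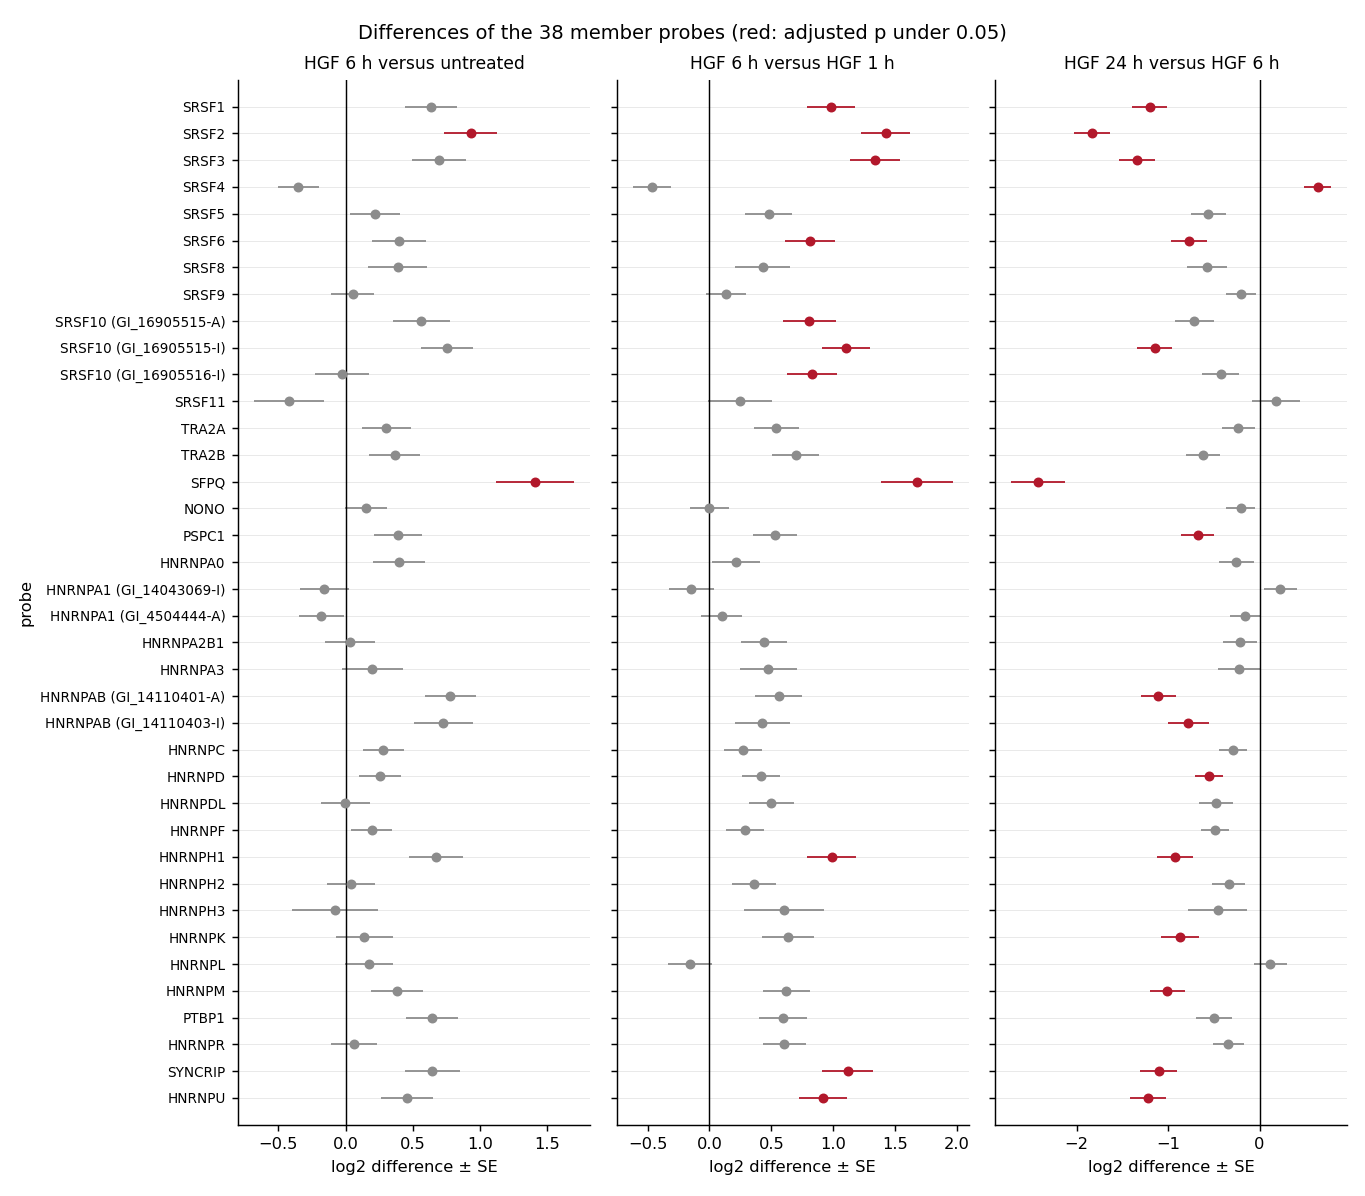
Log2 difference with its standard error for each of the 38 member probes in 3 comparisons, 6 h against untreated, 6 h against 1 h, and 24 h against 6 h, with probes at an adjusted p under 0.05 in red. There are 2, 11 and 16 red points, and SRSF4 is the only red point that lies on the opposite side of 0 from the other red points of its comparison.

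Among the SR proteins, SRSF3, the smallest of the family and a factor in mRNA export as well as splicing, gave 503 and 390 in untreated cells, 287 and 282 at 1 h, 728 and 709 at 6 h, 292 and 276 at 24 h, and 470 and 310 in ITGB4 cells. The 1 h and 24 h arrays were near one another and below the untreated arrays, and the 6 h arrays were above all. It rose 2.53-fold from 1 h to 6 h (adjusted p = 0.0069) and fell 2.53-fold to 24 h (adjusted p = 0.0025). Against untreated cells the difference was -0.64 at 1 h (SE 0.20, adjusted p = 0.223) and 0.70 at 6 h (SE 0.20, adjusted p = 0.094).

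SRSF1, the SR protein first described as ASF/SF2, gave 2554 and 2494 in untreated cells, 1765 and 2229 at 1 h, 3875 and 3958 at 6 h, 1836 and 1578 at 24 h, and 2974 and 2074 in ITGB4 cells. The 6 h duplicates had an SD of 0.022 on the log2 scale and stood above all other arrays. SRSF1 rose 1.97-fold from 1 h to 6 h (adjusted p = 0.016) and fell 2.30-fold by 24 h (adjusted p = 0.0035). SRSF6 gave 2833 and 2078 in untreated cells, 1620 and 2045 at 1 h, 3305 and 3091 at 6 h, 2101 and 1671 at 24 h, and 2397 and 1990 in ITGB4 cells. The untreated duplicates of SRSF6 were further apart than those at 6 h, which were the brightest 2 arrays. It rose 1.76-fold from 1 h to 6 h (adjusted p = 0.039) and fell 1.71-fold to 24 h (adjusted p = 0.032).

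SRSF4, an SR protein with a long arginine and serine domain, ran the other way. Its signal was 1217 and 1329 in untreated cells, 1430 and 1328 at 1 h, 956 and 1040 at 6 h, 1540 and 1556 at 24 h, and 1197 and 1309 in ITGB4 cells. The 6 h arrays were the lowest 2 and the 24 h arrays the highest 2 of the 10. SRSF4 rose 1.55-fold from 6 h to 24 h (adjusted p = 0.022), and its differences from untreated cells were -0.35 at 6 h (SE 0.15, adjusted p = 0.272) and 0.28 at 24 h (SE 0.15, adjusted p = 0.857). It was 0.69 within the first kind of array and 0.58 within the second from 6 h to 24 h. SRSF11, a protein that contacts the 3′ splice site factor U2AF, gave 996 and 810 in untreated cells, 448 and 717 at 1 h, 629.5 and 718 at 6 h, 1007 and 577 at 24 h, and 977 and 914 in ITGB4 cells. Its 1 h and 6 h arrays lay below the untreated ones, its 24 h duplicates lay on either side of them, and it was called in no comparison, with differences of -0.66 at 1 h (SE 0.26, adjusted p = 0.300) and -0.42 at 6 h (SE 0.26, adjusted p = 0.503).

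SRSF10, which is active as a splicing repressor when dephosphorylated, was read by 3 probes. The probe for all isoforms (GI_16905515-A) gave 441 and 431.5 in untreated cells, 294 and 462 at 1 h, 639 and 649.8 at 6 h, 445 and 347 at 24 h, and 529 and 433.5 in ITGB4 cells. The isoform probe GI_16905515-I gave 325 and 293 in untreated cells, 213 and 276 at 1 h, 492 and 552 at 6 h, 255 and 217 at 24 h, and 323 and 235 in ITGB4 cells. The isoform probe GI_16905516-I gave 466 and 397 in untreated cells, 199.99 and 282.5 at 1 h, 440.3 and 405 at 6 h, 357 and 278 at 24 h, and 389.9 and 319.7 in ITGB4 cells. The first 2 probes were brightest on both 6 h arrays, whereas on the last the 6 h arrays lay between the untreated ones.

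All 3 SRSF10 probes rose from 1 h to 6 h, by 0.81, 1.10 and 0.83 on the log2 scale (adjusted p = 0.049, 0.011 and 0.037). Against untreated cells at 6 h they differed by 0.56 (SE 0.21, adjusted p = 0.199), 0.75 (SE 0.20, adjusted p = 0.068) and -0.03 (SE 0.20, adjusted p = 0.978). At 1 h GI_16905516-I had the lowest difference among the members, -0.86 (SE 0.20, adjusted p = 0.189), and the other 2 probes stood at -0.24 and -0.35. The log2 ratio of GI_16905515-I to GI_16905516-I on the same array was -0.52 and -0.44 in untreated cells, 0.09 and -0.03 at 1 h, 0.16 and 0.45 at 6 h, -0.49 and -0.35 at 24 h, and -0.27 and -0.44 in ITGB4 cells. The 1 h and 6 h arrays thus lay above all 6 others in this ratio. The ratio of GI_16905515-A to GI_16905516-I was -0.08 and 0.12 in untreated cells, and higher in every other group. It was 0.56 and 0.71 at 1 h, 0.54 and 0.68 at 6 h, 0.32 and 0.32 at 24 h, and 0.44 and 0.44 in ITGB4 cells. In the ratio of GI_16905515-A to GI_16905515-I the 6 h arrays (0.38 and 0.24) lay below all others. The 3 ratios were not tested, nor set beside probe pairs of other genes.

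**Figure D4:**
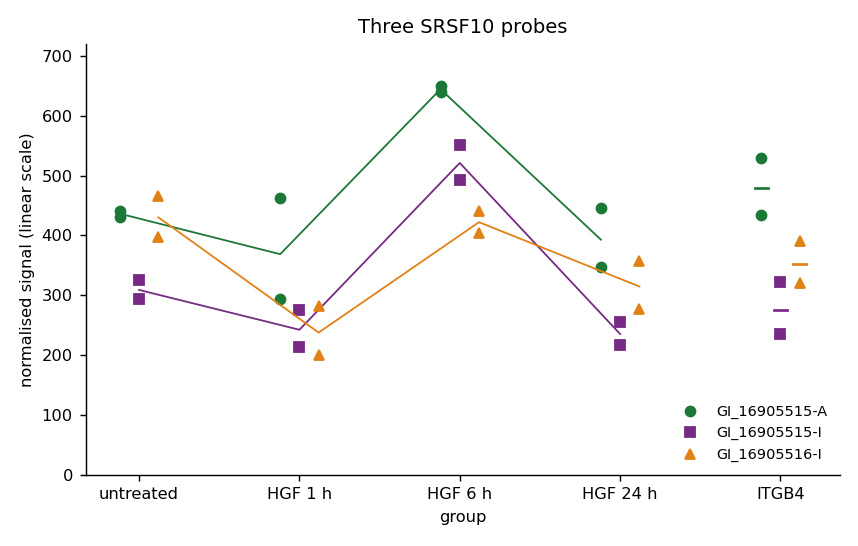
Normalised signal on a linear axis for the 3 SRSF10 probes, with 2 points per group and probe, lines joining the geometric means over the untreated and HGF groups, and short bars for the ITGB4 group. The isoform probe GI_16905516-I stood at 6 h within its untreated range of 397 to 466, while the other 2 probes stood above theirs.

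The other SR proteins moved less. SRSF5 and SRSF8 had both 6 h arrays above all others, with differences from 1 h to 6 h of 0.48 and 0.43 (adjusted p = 0.165 and 0.302). SRSF9 stayed between 1255 and 1704. The SR-like TRA2A and TRA2B, which bind exonic GAA repeats, stood 0.30 and 0.37 above untreated cells at 6 h, and 0.54 and 0.70 above the 1 h level (adjusted p = 0.106 and 0.053). TRA2B gave 3079 and 2780 at 6 h against 2491 and 2066 in untreated cells.

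The partners of SFPQ gave smaller differences. NONO, which pairs with SFPQ in most cells, gave 2167 and 2192 in untreated cells, 2600 and 2265 at 1 h, 2483 and 2372 at 6 h, 2176 and 2029 at 24 h, and 2522 and 2228 in ITGB4 cells. Its differences were 0.00 from 1 h to 6 h (SE 0.16) and -0.21 from 6 h to 24 h (SE 0.16, adjusted p = 0.540). PSPC1, the third member of the family, gave 394 and 444 in untreated cells, 336 and 432 at 1 h, 526 and 573 at 6 h, 345 and 342 at 24 h, and 434 and 346 in ITGB4 cells. The 6 h arrays of PSPC1 were above all others, and it fell 1.60-fold from 6 h to 24 h (adjusted p = 0.034). Whether the change of SFPQ differs from that of NONO or PSPC1 was not tested.

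Among the hnRNP proteins, HNRNPU, the scaffold attachment factor that binds chromatin and RNA, gave 3245 and 2810 in untreated cells, 2076 and 2325 at 1 h, 4399 and 3903 at 6 h, 1905 and 1663 at 24 h, and 3104 and 2127 in ITGB4 cells. Its 1 h and 24 h arrays were below, and its 6 h arrays above, both untreated arrays. It rose 1.89-fold from 1 h to 6 h (adjusted p = 0.022) and fell 2.33-fold to 24 h (adjusted p = 0.0033), when it stood 0.76 below untreated cells on the log2 scale (SE 0.19, adjusted p = 0.857). SYNCRIP, also called hnRNP Q, gave 525 and 652.5 in untreated cells, 390 and 458 at 1 h, 907.5 and 926 at 6 h, 411 and 443 at 24 h, and 727 and 474 in ITGB4 cells. The 1 h and 24 h arrays again lay below, and the 6 h arrays above, the untreated ones. SYNCRIP rose 2.17-fold from 1 h to 6 h (adjusted p = 0.012) and fell 2.15-fold to 24 h (adjusted p = 0.0064). Its paralogue HNRNPR gave 1109 and 1204 at 6 h against 687 and 842 at 1 h, a difference of 0.60 (SE 0.17, adjusted p = 0.064).

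HNRNPH1, which binds runs of G, gave 586 and 533 in untreated cells, 387 and 524 at 1 h, 881 and 903 at 6 h, 524 and 420.5 at 24 h, and 689.9 and 514 in ITGB4 cells. Both 6 h arrays were above all others. It rose 1.98-fold from 1 h to 6 h (adjusted p = 0.018) and fell 1.90-fold to 24 h (adjusted p = 0.013). HNRNPF gave 219 and 215 in untreated cells, 206 and 201 at 1 h, 266 and 232 at 6 h, 169 and 187 at 24 h, and 203 and 191.5 in ITGB4 cells, with the 6 h arrays highest and the 24 h arrays lowest. HNRNPH2 and HNRNPF were called in no comparison, with differences of -0.34 and -0.49 from 6 h to 24 h (adjusted p = 0.311 and 0.071). HNRNPH3 gave 625 and 470 in untreated cells, 324 and 355 at 1 h, 552 and 479 at 6 h, 551 and 255 at 24 h, and 569 and 320 in ITGB4 cells. Its 1 h arrays were below the untreated ones, by 0.68 on the log2 scale (SE 0.32, adjusted p = 0.380), and its 24 h and ITGB4 duplicates were far apart.

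HNRNPM, a repressor and activator of alternative exons that binds GU-rich RNA, gave 3400 and 3007 in untreated cells, 2705 and 2712 at 1 h, 4469 and 3890 at 6 h, 2000.0 and 2153 at 24 h, and 3722 and 2505 in ITGB4 cells. The 6 h arrays were above and the 24 h arrays below all others, and the fall between them was 2.01-fold (adjusted p = 0.0071). HNRNPK, which binds runs of C in RNA and DNA, gave 833 and 636 in untreated cells, 564 and 472 at 1 h, 805 and 799 at 6 h, 516 and 374 at 24 h, and 772 and 572 in ITGB4 cells. Here the 6 h arrays lay between the untreated ones, and the called difference was a 1.82-fold fall from 6 h to 24 h (adjusted p = 0.023), with 24 h at -0.73 from untreated cells (SE 0.21, adjusted p = 0.857). HNRNPD, the AU-rich element binding protein AUF1, gave 5839 and 6299 in untreated cells, 5110 and 5769 at 1 h, 7122 and 7383 at 6 h, 4708 and 5211 at 24 h, and 6567 and 6139 in ITGB4 cells. The 6 h arrays were its highest, and HNRNPD fell 1.46-fold to 24 h (adjusted p = 0.045).

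PTBP1, which represses exons through polypyrimidine tracts, gave 5291 and 6510 in untreated cells, 5610 and 6549 at 1 h, 8445 and 9921 at 6 h, 5444 and 7705 at 24 h, and 7122 and 7102 in ITGB4 cells. Both 6 h arrays were above all others, but PTBP1 was called in no comparison (0.64 at 6 h against untreated cells, SE 0.19, adjusted p = 0.112). HNRNPL, which binds CA repeats, had its 6 h arrays within the range of the rest, with 231 and 297 in untreated cells, 345 and 314 at 1 h, 279.7 and 311 at 6 h, 297 and 345 at 24 h, and 278 and 328 in ITGB4 cells. It stood above untreated cells by 0.33 at 1 h and 0.29 at 24 h (SE 0.18, adjusted p = 0.445 and 0.865). HNRNPC, whose tetramers measure RNA length, stood at 2541 and 2709 at 6 h against 1992 to 2300 on the other arrays (0.28 above untreated cells, adjusted p = 0.416).

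Apart from HNRNPAB, the hnRNP A/B proteins, which often oppose SR proteins in the choice of splice sites, were called in no comparison. HNRNPA1, the best-known of them, gave 7531 and 7239 in untreated cells, 5431 and 6821 at 1 h, 6156 and 6903 at 6 h, 5537 and 6176 at 24 h, and 6924 and 6482 in ITGB4 cells on its probe for all isoforms. The untreated arrays were the highest 2, and the difference at 6 h was -0.18 (SE 0.17, adjusted p = 0.710). Its isoform probe lay between 120.4 and 178, close to the detection limit, and was called in no comparison. HNRNPA1 has many processed pseudogenes, so its signal may include transcripts of such copies. HNRNPA2B1 gave 1482 and 1641 in untreated cells, 967 and 1430 at 1 h, 1536 and 1659 at 6 h, 1395 and 1356 at 24 h, and 1723 and 1749 in ITGB4 cells, which were its highest. HNRNPA0 gave 339 and 407 in untreated cells, 420.2 and 424 at 1 h, 452 and 533 at 6 h, 344 and 493 at 24 h, and 389.7 and 451 in ITGB4 cells. Both its 1 h and its 6 h arrays lay above both untreated ones. HNRNPA2B1, HNRNPA3 and HNRNPA0 differed from untreated cells at 6 h by 0.03, 0.20 and 0.40 (adjusted p = 0.970, 0.794 and 0.339), and HNRNPDL by 0.00.

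At 1 h of HGF 0 of the 38 member probes were called against untreated cells, as were 0% of all kept probes. With the kind of array as a block both stayed at 0. With the replicate number as a block, 2 members and 3.05% of all kept probes were called. The 2 blocks coincide in the untreated and HGF groups. By the unadjusted p of the main limma fit, without a block, 10 members were under 0.05, against 13.5% of all kept probes. Differences were below 0 for 30 of 38 members (43% of all), and for 23 both arrays were below both untreated arrays (20.1% of all). The 1 h duplicates did not sit at one level, since replicate 1 was below replicate 2 for all but 8 of the 38 members, by a median of 0.21 on the log2 scale. The median difference from untreated cells was accordingly -0.50 within the first kind of array and -0.09 within the second.

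At 24 h 0 of 38 members and 0% of all kept probes were called against untreated cells, and 10 members were under an unadjusted p of 0.05 in the limma fit (5.71% of all). Both 24 h arrays were below both untreated arrays for 20 of 38 members (14.7% of all), and the 4 lowest differences were those of SFPQ, SRSF2 (-0.90, SE 0.20), HNRNPU and HNRNPK, each with an adjusted p of 0.857. The median was -0.28 and -0.30 within the 2 kinds of array. HNRNPL and SRSF4 were the 2 members with both 24 h arrays above both untreated arrays (14.9% of all).

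In ITGB4 cells 0 of 38 members were called, and 0.00713% of all kept probes, which is 1 probe, that of ITGB4 itself. By the unadjusted p of limma 0 members were under 0.05 (0.835% of all). Differences lay between -0.35 for HNRNPH3 and 0.33 for the isoform probe of HNRNPAB. Both ITGB4 arrays were above both untreated arrays for 6 members (13.6% of all kept probes) and below for 3 (12.1%). PTBP1 stood at 0.28 (SE 0.19), HNRNPA2B1 at 0.15 (SE 0.19) and NONO at 0.12 (SE 0.16), while GI_16905516-I of SRSF10 stood at -0.29 (SE 0.20), HNRNPA1 at -0.14 (SE 0.17) and HNRNPF at -0.14 (SE 0.15), each with an adjusted p of 1. Replicate 1 was above replicate 2 for 31 of the 38 members, by a median of 0.24, against 46.8% of all kept probes. The median SD of the members between duplicates was 0.191 in ITGB4 cells and 0.190 at 24 h. It was 0.173 at 1 h, 0.143 in untreated cells and 0.087 at 6 h, so the ITGB4 duplicates were about as far apart as those at 24 h.

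Other parts of the splicing machinery were read from lists chosen with earlier results of these data known. Their counts stand beside 1.9% of all kept probes called at 6 h against untreated cells, 4.67% at 6 h against 1 h and 8.31% at 24 h against 6 h, and no list was tested against these shares. Of 35 probes for core snRNP proteins, 1 was called higher at 6 h than at 1 h (2.24% of all) and 3 lower at 24 h than at 6 h (4.07% of all), with median differences of 0.18 and -0.19. These were SNRPD1 in both comparisons (0.70 and -0.94, adjusted p = 0.047 and 0.0078) with SNRPF (-0.65, adjusted p = 0.034) and PRPF4 (-0.60, adjusted p = 0.049). The signals of SNRPD1 were low, between 116 and 273. Among 13 probes for branch site and 3′ splice site factors, the small U2AF subunit U2AF1 was called at 6 h against untreated cells (0.69, SE 0.16, adjusted p = 0.042), and U2AF1 (-0.76, adjusted p = 0.011) and the branch point protein SF1 (-1.23, adjusted p = 0.0052) fell to 24 h. U2AF1 gave 3545 and 3875 in untreated cells and 5718 and 6274 at 6 h.

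The kinases that phosphorylate SR proteins and their import receptor, 9 probes, had 0 called in any of the 6 comparisons, with a median of 0.28 from 1 h to 6 h. Between 0% and 8.31% of all kept probes were called in these comparisons, so 0 of 9 is near the share over all. Of 13 probes for SR-related proteins, LUC7L3 (1.03), PNN (1.17) and RBM25 (1.42) rose from 1 h to 6 h (adjusted p = 0.047, 0.026 and 0.014), and LUC7L3 fell to 24 h (-0.98, adjusted p = 0.040). RBM25 gave 418 and 343 in untreated cells, 145 and 232 at 1 h, and 569 and 427 at 6 h. Among 17 probes for other hnRNP-like proteins, TARDBP rose from 1 h to 6 h and fell to 24 h (0.91 and -0.72, adjusted p = 0.018 and 0.029), PCBP4 did the reverse (-0.85 and 0.80, adjusted p = 0.026 and 0.021), and the cold-inducible protein CIRBP rose to 24 h (0.60, adjusted p = 0.033).

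Paraspeckle proteins outside the SFPQ family had 10 probes. RBM14, a protein needed for paraspeckle assembly, gave 607 and 513 in untreated cells, 709 and 742 at 1 h, 1294 and 1380 at 6 h, 444.5 and 503 at 24 h, and 706 and 495 in ITGB4 cells. It was higher at 6 h than in untreated cells (1.26, SE 0.19, adjusted p = 0.0095) and than at 1 h (0.88, adjusted p = 0.022), and fell to 24 h (-1.50, adjusted p = 0.0013). RBM12 rose to 6 h and fell to 24 h (0.63 and -1.21, adjusted p = 0.043 and 0.0015). Its signals were low, 164 and 168 at 1 h, 268 and 248 at 6 h, and 114 and 109 at 24 h, near the detection limit of 89.6. Among 18 probes for other splicing regulators ESRP1, an epithelial factor, was called, with 0.86 from 1 h to 6 h and -0.64 from 6 h to 24 h (adjusted p = 0.014 and 0.031), and the other probes of that list were not. The signals of ESRP1 were low too, between 127 and 245.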

How the data were processed

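Biotin-labelled cRNA from MDA-MB-435 cells was measured on 10 Illumina Human-8 arrays, and the 5 groups of 2 were read from the sample labels. The authors deposited scanner tables with 1 intensity per probe on a linear scale, neither background subtracted nor normalised between arrays, and the submitters' processing notes name BeadStudio 1.5.1.3. The same deposited tables also hold the detection score, a fraction between 0 and 1 that rises with the distance from negative controls, and the number of beads. A deposited value table of the series holds the intensity after the authors' rank-invariant normalisation. It was an alternative only, because its column for ITGB4 replicate 2 was not a straight line of that array's scanner table (Spearman 0.968 across probes).

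Of 24136 probes, 22 controls and 9 without an intensity on some array were set aside. Intensities were quantile normalised and brought to log2 with no offset, and 14018 probes (58.2%) with a detection score of 0.99 or more on at least 1 array were kept. All were fitted with limma 3.58.1 in R 4.3.3 as 5 group means over the 10 arrays, and 6 contrasts were tested two-sided with moderated variance and Benjamini-Hochberg adjustment over the kept probes of each. The spread has 5 residual degrees of freedom and 8.16 from the prior, and the number of arrays limits the precision. The fit was tested on simulated data. P-values measure the spread between the duplicates that the series calls biological. The signal at the detection limit was 89.6.

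Probe names follow the array annotation, updated to current symbols by Entrez number. In probe names, S marks a single transcript, A all isoforms of a gene and I one isoform. Members and gene lists were chosen with earlier results of these data known. Full values were given for members called in any contrast, for up to 4 rises and 4 falls per contrast with untreated cells that were not called and whose arrays did not overlap, and for genes whose probes disagreed. Some signals of HNRNPC, HNRNPR and TRA2B, and those of U2AF1, RBM25, RBM14, RBM12, ESRP1 and SNRPD1 from the other lists, were added after their values were seen. Promoter sequences are RefSeq's, of GRCh38.p14, and positions of probes were not used here.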

Additional observations from a re-analysis of the deposited data

Results flagged for a closer look

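The member probes called between HGF times are listed here because the effects at 2 times differed by the test of that difference in limma, and not because one passed a threshold and the other did not. From 1 h to 6 h, log2 signals rose by 0.98 for SRSF1, 1.42 for SRSF2, 1.34 for SRSF3, 0.81 for SRSF6, 1.68 for SFPQ, 0.99 for HNRNPH1, 1.12 for SYNCRIP and 0.92 for HNRNPU, and by 0.81, 1.10 and 0.83 on the SRSF10 probes GI_16905515-A, GI_16905515-I and GI_16905516-I. Both 6 h arrays were above both 1 h arrays for each of these 11 probes (22.7% of all kept probes). The probes were picked by their calls on these same arrays, so this is no separate support.

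From 6 h to 24 h the differences were -1.20 for SRSF1, -1.84 for SRSF2, -1.34 for SRSF3, -0.77 for SRSF6, -1.15 for SRSF10 (GI_16905515-I), -2.42 for SFPQ and -0.68 for PSPC1. For the hnRNP proteins they were -1.11 and -0.78 for the probes GI_14110401-A and GI_14110403-I of HNRNPAB, -0.55 for HNRNPD, -0.93 for HNRNPH1, -0.87 for HNRNPK, -1.01 for HNRNPM, -1.10 for SYNCRIP and -1.22 for HNRNPU. SRSF4 differed by 0.63, the only called rise. Both 24 h arrays lay on 1 side of both 6 h arrays for each of these 16 probes, which again were picked by calls on the same arrays. Of all kept probes 20.3% had both 24 h arrays below and 22.5% above. The contrasts share the 6 h arrays, so they are not independent of each other.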

How the results depend on the processing

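Over the 29 calls of a member probe in a contrast, 638 values were recomputed under other settings. In 0 the direction reversed, 418 stayed called, 162 were no longer called, and 58, within 1 kind of array, had no test. Many settings changed only the probe filter, the estimate of spread, a block or the arrays of groups outside the contrast. The difference itself stayed the same there, so its direction could not reverse and the absence of reversals is no check in those settings. Counts of called members follow for 6 h against untreated, 6 h against 1 h and 24 h against 6 h, beside 2, 11 and 16, with the calls over all kept probes beside 267, 654 and 1165. With the authors' value table they were 1, 7 and 10 (65, 202 and 641 in all), with signals floored at 179 (the detection limit times 2) 0, 0 and 3 (95, 78 and 317), and with the ordinary pooled variance 0, 0 and 1 (0, 0 and 107). Scaling arrays to the same median gave 7 at 6 h against 1 h (686 in all). At 6 h against untreated, the count was 1 with no filter (216 in all) and 4 with probes detected on all 10 arrays (387 of 8880). With the array kind as a block the first 2 counts were 10 and 21 (1066 and 1690 in all). Leaving out 1 array in turn gave 0 to 4, 0 to 14 and 8 to 16 (0 to 490, 0 to 1037 and 308 to 1068 in all). Calls over all kept probes moved with those of the members in most of these settings, and the causes were not tested. At 1 h against untreated the count of 0 became 1 when only the 4 arrays compared were fitted (252 in all). At 24 h and in ITGB4 cells against untreated it was 0 under every setting run.

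The labels give the replicate number no meaning beyond a number. Deviations of same-numbered arrays correlated between -0.063 and 0.66 over the 10 pairs of groups, with 2 under 0.1. They were 0.585 for untreated with 6 h, 0.66 for untreated with 24 h and 0.65 for 6 h with 24 h. HGF 1 h gave 0.20, 0.37 and 0.062 with untreated, 6 h and 24 h. The main fit did not take the number to pair the samples, so deviations shared between groups stayed in its spread. In the untreated and HGF groups the number coincides with the kind of array. With the replicate block the counts were 2 at 1 h against untreated (427, or 3.05%, of all kept probes) and 10 at 6 h against untreated (1089, or 7.77%). At 6 h against 1 h the count was 22, of which 21 were higher (1871, or 13.3%, of all). At 24 h against 6 h it was 23 (2245, or 16.0%, of all).

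The member median in the value table was 0.50 at 6 h against untreated, where that of all kept probes was 0.18, 0.72 from 1 h to 6 h, where it was 0.15, and -0.73 from 6 h to 24 h, where it was -0.09. SRSF4 was not called there.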
